A study of Rattus norvegicus with 24 samples.

Results

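The genes described here are the cytochrome P450 and conjugation enzymes in rat quadriceps muscle: every row of the deposited table whose symbol begins with Cyp1, Cyp2, Cyp3, Cyp4, Cyp7, Cyp8, Ugt1, Ugt2, Sult, Gsta, Gstm, Gstp or Gstt. There were 91 such genes among 21067, namely 59 Cyp, 5 Ugt, 10 Sult and 17 Gst genes. Since the rule reads the first characters only, 12 of the Cyp genes belong to other families whose names start alike, such as Cyp20a1, Cyp26b1, Cyp27a1 and Cyp39a1. RNA was sequenced from the quadriceps femoris of 24 Sprague-Dawley rats of both sexes, received at an age of 6 weeks, with 6 rats in each group and 1 library per rat. Control rats (labelled blank) were fed normally without treadmill training, and the treadmill group trained for 7 weeks on a treadmill of rising speed and then ran to exhaustion. Catgut group 1 and catgut group 2 did the same running after absorbable collagen thread had been placed under anesthesia at acupoints, with Fei Shu as the added acupoint in group 2. There was no group with sham embedding and no untrained group with catgut, so running is shared by 3 of the groups. The labels give no sex per library.

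Cytochrome P450 enzymes are heme proteins, most of which use electrons delivered by P450 reductase, mitochondrial ones such as Cyp27a1 excepted. They insert oxygen into drugs, steroids, bile acid precursors and fatty acids. The products are then made more soluble by conjugation: UDP-glucuronosyltransferases (Ugt) add glucuronic acid, sulfotransferases (Sult) add sulfate and glutathione S-transferases (Gst) add glutathione. Many members of the Cyp2, Cyp3 and Ugt2 families are made mainly in the liver, several Cyp4a and Cyp2c enzymes also in the kidney, whereas Gst enzymes of the mu and pi classes are made in many tissues, muscle among them.

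The members were sorted by how they varied across libraries. The first class held those that followed Alb, the gene of the liver plasma protein albumin, with a Pearson correlation over 0.8 between log2(FPKM + 1) values across the 24 libraries and over 12 counts in at least 1 library. FPKM counts fragments per kilobase of transcript, scaled to the mapped fragments of the library, so it can be compared between genes, and 12 counts correspond to about 3 fragments in this table. There were 19 members in this class: 15 Cyp, 2 Ugt, 2 Sult and 0 Gst genes. The muscle-expressed class held the 22 members with a median of at least 1 FPKM that did not follow Alb, namely 11 Gst, 10 Cyp, 1 Sult and 0 Ugt genes. Another 39 members were low, and 11 were not detected above 12 counts in any library, among them Cyp7a1, the rate-limiting enzyme of bile acid synthesis from cholesterol, Cyp3a18 and Cyp2c13. The correlation is a sorting rule and not a test, because 2 libraries, treadmill replicate 3 and control replicate 2, carried most of it. Without those libraries 9 members passed it, and by Spearman rho over 0.8 there were 0.

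Regulatory sequence is shown for members of both classes, because the classes differ in where they are usually switched on. RefSeq promoters of the GRCr8 build, from 250 bases before to 50 bases after the annotated start, were matched by symbol for 76 of the 91 members, 16 of those that followed Alb and 19 that were muscle-expressed. They were searched on both strands for the antioxidant element TGACNNNGC, the xenobiotic element GCGTG read by the aryl hydrocarbon receptor, and the TATA box TATAAA. Each motif was searched by itself, so matches to different motifs may overlap. The 250 bases before the start are printed with matches in capitals, on the strand of the gene. Sult2a2 (chr1:85104533-85104782 (- strand)), Cyp2c12 (chr1:248677035-248677284 (- strand)), Cyp2c7 (chr1:247966144-247966393 (+ strand)) and Cyp2d2 (chr7:115819282-115819531 (- strand)) are shown because they were among the most abundant members that followed Alb. Cyp2d4 (chr7:115771822-115772071 (- strand)) is shown as the muscle-expressed neighbour of Cyp2d2 in the same gene cluster, and Gstp1 (chr1:210769706-210769955 (- strand)) as the muscle-expressed member of the pi class.
Sult2a2: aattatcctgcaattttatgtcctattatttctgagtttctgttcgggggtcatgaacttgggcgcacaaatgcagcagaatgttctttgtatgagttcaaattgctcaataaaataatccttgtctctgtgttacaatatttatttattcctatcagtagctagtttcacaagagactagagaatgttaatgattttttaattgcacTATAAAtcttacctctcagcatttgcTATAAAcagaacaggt
Cyp2c12: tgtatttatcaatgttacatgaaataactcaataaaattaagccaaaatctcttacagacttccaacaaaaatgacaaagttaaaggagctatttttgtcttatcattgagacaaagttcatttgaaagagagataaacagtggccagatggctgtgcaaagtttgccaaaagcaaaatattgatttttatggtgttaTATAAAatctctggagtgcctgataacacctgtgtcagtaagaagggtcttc
Cyp2c7: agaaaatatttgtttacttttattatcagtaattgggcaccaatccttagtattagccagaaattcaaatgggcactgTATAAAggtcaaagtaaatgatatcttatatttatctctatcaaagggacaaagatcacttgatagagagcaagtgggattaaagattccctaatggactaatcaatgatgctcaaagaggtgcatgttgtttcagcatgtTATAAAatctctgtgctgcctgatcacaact
Cyp2d2: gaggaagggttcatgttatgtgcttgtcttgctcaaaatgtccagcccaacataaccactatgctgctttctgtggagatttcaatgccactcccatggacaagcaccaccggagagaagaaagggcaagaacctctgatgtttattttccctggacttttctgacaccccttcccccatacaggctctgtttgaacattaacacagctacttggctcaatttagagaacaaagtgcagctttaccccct
Cyp2d4: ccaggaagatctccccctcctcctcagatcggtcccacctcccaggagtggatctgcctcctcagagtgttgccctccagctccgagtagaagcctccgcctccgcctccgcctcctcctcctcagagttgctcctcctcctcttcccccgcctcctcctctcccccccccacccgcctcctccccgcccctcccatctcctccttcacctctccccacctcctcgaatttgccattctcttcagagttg
Gstp1: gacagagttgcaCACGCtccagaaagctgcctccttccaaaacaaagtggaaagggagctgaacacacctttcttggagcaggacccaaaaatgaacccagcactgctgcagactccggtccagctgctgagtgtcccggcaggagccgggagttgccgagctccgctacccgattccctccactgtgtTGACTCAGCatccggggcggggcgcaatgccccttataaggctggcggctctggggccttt

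The Sult2a2 promoter held TATAAA at -42 and -16, counted from the annotated start to the first base of the match. The Cyp2c7 promoter held it at -172 and -31 and the Cyp2c12 promoter at -52, while the promoters of Cyp2d2 and Cyp2d4 held none of the 3 motifs in the printed stretch. Gstp1 held TGACNNNGC at -61. Over the members that followed Alb, TATAAA was found in 9 of 16 promoters (56.2%), against 4 of 19 muscle-expressed promoters (21.1%) and 14.3% of all 27457 promoters of this length. The xenobiotic element went the other way, with 1 of 16 (6.25%), 8 of 19 (42.1%) and 31.1%. The antioxidant element was found in 1 of 16 (6.25%), 3 of 19 (15.8%) and 12.2%. These shares are descriptions of letters in a window and were not tested.

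Libraries held between 45945938 and 78278080 counts in total. Skeletal muscle markers (6 of 7 listed genes in the table) summed to between 65482 and 89646 FPKM in the 24 libraries. Liver markers (18 of 19 in the table) had sums of 0.631 to 264 FPKM in control rats, 1.28 to 397 in treadmill rats, 0.518 to 11.3 with catgut 1 and 2.12 to 7.93 with catgut 2. Of those 18, 15 had a correlation with Alb over 0.8, with Alb itself counted among them. The others included Hpd, which had a median of 3.35 FPKM, and the regulator Hnf4a. Apoa2 was at 0 in 19 libraries and Ttr in 13. In bulk tissue, fewer cells of a type and less RNA per cell cannot be told apart. Lung markers summed to 12.6 FPKM in control replicate 2 and 5.12 in treadmill replicate 3, with Scgb1a1 at 10.1 in the former. How the libraries came to hold these transcripts was not tested. The Y-linked gene Eif2s3y was over 5 FPKM in 3 libraries each of control, treadmill and catgut group 1 and in 2 of catgut group 2. The latter count does not match the equal numbers of males and females per group that the study's methods describe.

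The members that followed Alb were high in the same few rats. Alb was 226 FPKM in treadmill replicate 3, 135 in control replicate 2, 14.3 in treadmill replicate 2, 3.14 in treadmill replicate 6 and 2.30 in treadmill replicate 5, and at most 0.268 in the 12 catgut libraries. The 19 members summed to 39.1 FPKM in treadmill replicate 3, 31.5 in control replicate 2 and 4.28 in treadmill replicate 2, and to between 0.1004 and 1.79 in the other 21. All 19 had treadmill replicate 3 and control replicate 2 as their 2 highest libraries, 14 with the former on top and 5 with the latter. In the 12 catgut libraries, 14 of the 19 stayed at or under 12 counts and 7 were at 0 throughout. Their sum had a median of 0.233 FPKM in control (0.143 to 31.5), 1.12 in treadmill (0.196 to 39.1), 0.260 in catgut group 1 (0.1004 to 0.659) and 0.211 in catgut group 2 (0.138 to 0.969), and the 4 ranges overlapped.

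**Figure D1:**
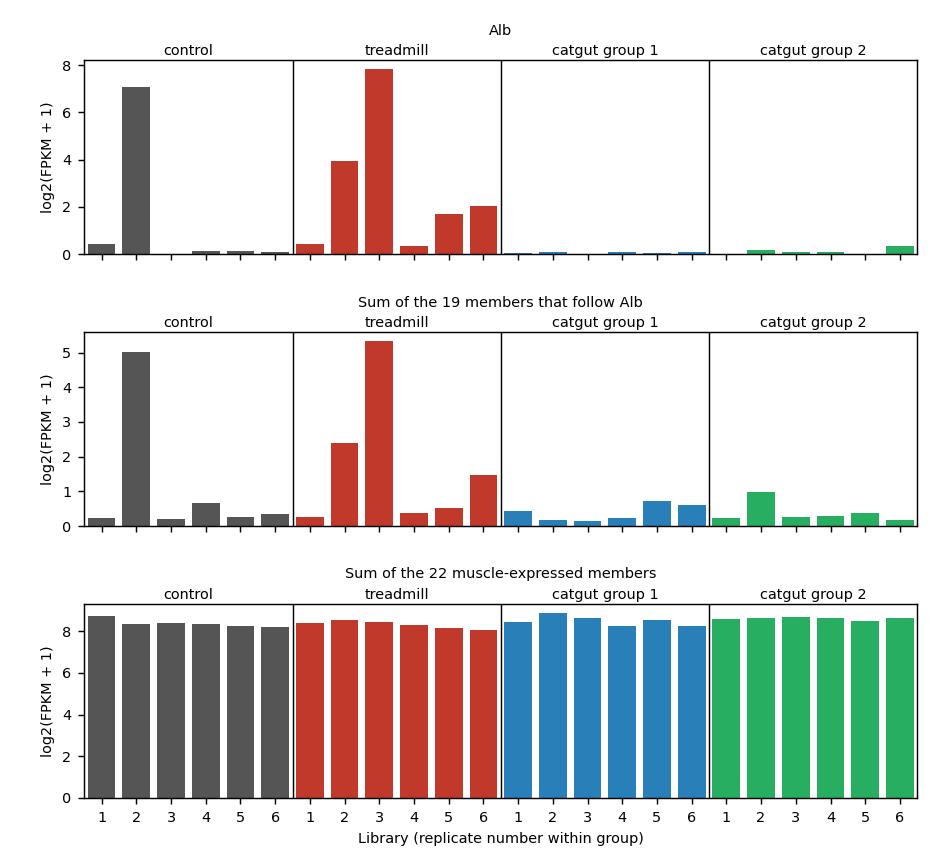
Level per library, as log2(FPKM + 1) on the y axis, of Alb (top), of the summed 19 members that followed Alb (middle) and of the summed 22 muscle-expressed members (bottom), with libraries on the x axis coloured by group. Control replicate 2 and treadmill replicates 2 and 3 stand out in the upper panels, at summed levels of 31.5, 4.28 and 39.1 FPKM, and not in the bottom panel, where the libraries lie between 263 and 469 FPKM.

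Of the 19 members, Cyp2c7, Cyp2c12 and Sult2a2 reached the highest levels. Cyp2c7 (chr1:148053687-148119857 as the table lists it), a retinoid and steroid hydroxylase, was 9.72 FPKM in treadmill replicate 3, 6.32 in control replicate 2, 1.31 in treadmill replicate 2, 0.0723 in treadmill replicate 4 and 0 in the other 20 libraries. Cyp2c12, a steroid hydroxylase that is made mainly by female rat liver, was 7.12, 6.64, 0.549 and 0.0345 FPKM in these libraries in the same order and 0 in the other 20. Sult2a2, which sulfates hydroxysteroids and bile acids, was 7.08 FPKM in treadmill replicate 3, 6.76 in control replicate 2 and 0.641 in treadmill replicate 2, and was at most 0.0260 elsewhere. These 3 genes were thus seen in a handful of rats and were close to absent in the others. Eif2s3y was at most 0.0266 FPKM in the 13 libraries below the 5 FPKM mark, which include the 3 libraries of highest Alb. Cyp2c11, the corresponding enzyme of male rat liver, was 0 FPKM in these 3 libraries and peaked at 0.174 FPKM in treadmill replicate 6.

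Other members of the class peaked at lower levels. Cyp2d2, Cyp2d1 and Cyp2d5 are neighbours on chromosome 7 that oxidize basic drugs, and their levels in treadmill replicate 3 were 2.61, 1.04 and 0.932 FPKM. Cyp2d1 was the most widespread of the 3, with over 12 counts in 14 libraries and 0 in only 1. Cyp2d4 (chr7:123599266-123608436) lies beside them (Cyp2d2 at chr7:123651827-123655896) and was muscle-expressed: its lowest, median and highest levels were 0.808, 1.26 and 1.80 FPKM, and its correlation with Alb was 0.17. Near-identical Cyp2c, Cyp2d, Gsta and Gstm copies may share reads, so levels of single copies are uncertain. Cyp1a2, which oxidizes aromatic amines, was 1.72 FPKM in treadmill replicate 3, 0.797 in control replicate 2 and 0.140 in treadmill replicate 2, with 0 elsewhere. Cyp8b1, the sterol hydroxylase that steers bile acid synthesis towards cholic acid, was 2.03 FPKM in treadmill replicate 3, and 8 libraries held over 12 counts of it. Ugt2b15, which glucuronidates steroids, was higher in control replicate 2 (1.11 FPKM) than in treadmill replicate 3 (0.717).

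The proportions among these genes differed between the pair of richest libraries. Relative to Alb, Sult2a2 stood at 5.01% in control replicate 2 and 3.13% in treadmill replicate 3, and Cyp2c12 at 4.93% and 3.15%. Cyp2c7 was at 4.69% and 4.30% of Alb. The ratio of the level in treadmill replicate 3 to that in control replicate 2 ran from 2.26 for Cyp2c22, at 0.405 and 0.179 FPKM, to 0.639 for Sult1b1, which sulfates thyroid hormones and phenols, beside 1.68 for Alb. These are single libraries, so this spread has no replicate check.

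The threshold of the sorting rule passed between Cyp4a1, a fatty acid hydroxylase, and Cyp2e1, an ethanol oxidase. Cyp4a1, the last member inside, had a correlation of 0.81 and 0.605 FPKM in treadmill replicate 3. Cyp2e1, the first outside at 0.80, was 7.13 FPKM in treadmill replicate 3, 4.53 in control replicate 2 and 1.89 in treadmill replicate 2, above a median of 0.549 FPKM in all libraries, with over 12 counts in 22 of them. Cyp4a3 followed at 0.69. Within groups the correlation of the 19 members with Alb was at least 0.94 in control and at least 0.85 in treadmill. These values restate the sorting, since control replicate 2 (Alb 135 FPKM, next 0.360) and treadmill replicate 3 (226, next 14.3) largely set them. In the catgut groups the correlation was between -0.78 and 0.59 where it could be computed, among values near 0.

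**Figure D2:**
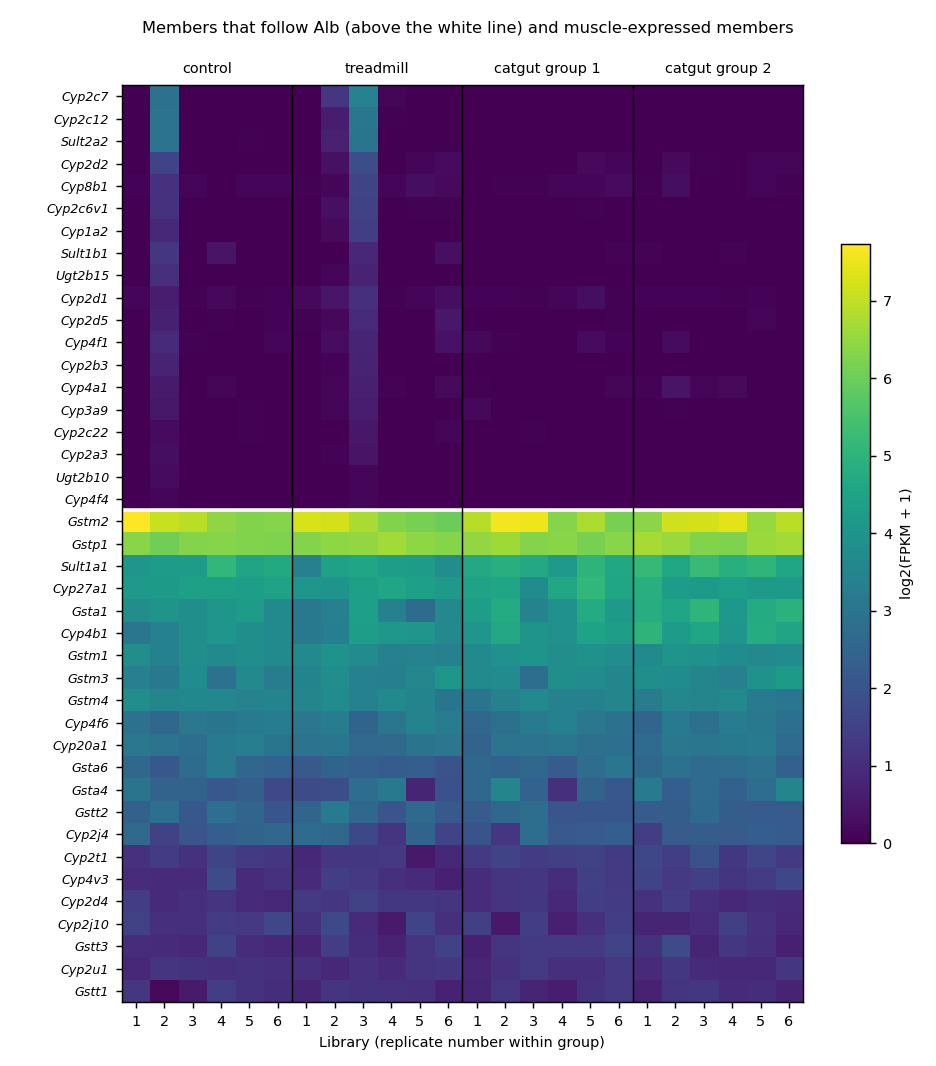
Levels of the 19 members that followed Alb (above the white line) and the 22 muscle-expressed members (below it) in each library, coloured by log2(FPKM + 1). The upper block is near 0 outside control replicate 2 and treadmill replicates 2 and 3, while the lower block, headed by Gstm2 and Gstp1, is filled in all 24 libraries.

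The muscle-expressed members were above 0 in every library. Gstm2 (chr2:210720704-210782856), of the mu class that conjugates epoxides and quinones, had the highest median of the 91 genes at 114 FPKM, with a range of 62.7 to 211. Its listed interval encloses those of Gstm6 and Gstm3l on the same strand, and the part of shared reads in its level was not tested. Gstp1 (chr1:219291679-219294147), of the pi class, ranged from 65.9 to 105 FPKM with a median of 80.5. Sult1a1, the phenol sulfotransferase, had a median of 22.9 FPKM (9.20 to 36.6) and was the only sulfotransferase in the class. Cyp27a1, a mitochondrial sterol hydroxylase, had a median of 19.6 FPKM (12.5 to 34.02). The next were Gsta1 at 16.3, Cyp4b1 at 15.5, Gstm1 at 12.3, Gstm3 at 11.2, Gstm4 at 10.3, Cyp4f6 at 7.37, Cyp20a1 at 6.84 and Gsta6 at 4.87 FPKM. Their correlations with Alb ran from -0.42 for Gsta6 to 0.48 for Gstt2 over the whole class of 22. The Gst genes of the class summed to a median of 244 FPKM in control, 248 in treadmill, 264 in catgut group 1 and 308 in catgut group 2, against 57.3, 54.8, 64.4 and 63.6 FPKM for the Cyp genes. Gstm2, the most abundant of them, had a median of 79.3 FPKM in the 11 libraries with Eif2s3y over 5 FPKM (62.7 to 109) and 149 in the other 13 (106 to 211), of which 4 belong to catgut group 2 and 3 to each of the other groups. The part of this split in the group medians was not tested.

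The treadmill group was compared with control to ask what training and the final run to exhaustion, which this design cannot separate, changed together. Of the 91 members, 55 had a mean of at least 0.1 FPKM and were tested in each comparison: 10 that followed Alb, 22 muscle-expressed and 23 low. By edgeR's quasi-likelihood test with Benjamini-Hochberg adjustment over 14772 genes, 0 of 55 members passed an adjusted p under 0.05, where 0.0542% of all genes tested did. DESeq2 and limma also called 0 members, beside 0.758% and 0.0406% of all genes. At an unadjusted p under 0.05 there were 2 members, beside 9.12% of all genes. By the study's criterion for DEGs, a ratio of group mean FPKM over 1.5 in either direction with an unadjusted p under 0.05, there were 0 members, against 2.85% of all genes. Gstp1 was 65.9, 77.1 and 80.0 FPKM (lowest, median, highest) in control and 77.2, 84.9 and 101 in treadmill, with 4 of 6 treadmill libraries above every control library. Its log2 fold change was 0.22 ± 0.09 (SE, n = 6 per group) with an adjusted p of 0.53 by edgeR. Gsta6 was 3.41, 4.87 and 7.85 FPKM in control and 2.97, 3.88 and 4.56 in treadmill, a log2 fold change of -0.39 ± 0.14 with an adjusted p of 0.486 by edgeR. Both pairs of ranges overlapped. The median log2 fold change was -0.09 over the muscle-expressed members and 0.73 over the 10 that followed Alb, beside -0.0020 over all genes. The value of 0.73 restates the sorting, since treadmill replicate 3 and control replicate 2 largely set the levels of these 10. Over the alternatives the log2 fold change of Cyp2c7, for example, ran from -2.14 to 10.7. Without control replicate 2, the criterion was met by 12 members, beside 4.41% of all genes, and 8 of the 12 followed Alb and so were sorted on that library. Without it and treadmill replicates 2 and 3, an alternative chosen after the data were seen, it was met by 7 members (4.71% of all genes), of which Cyp39a1, Gsta1, Gsta2, Gsta6 and Cyp2s1 did not follow Alb.

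The next comparison, of catgut group 1 with treadmill, asks what embedding changed in rats that ran. By edgeR 0 of 55 members passed an adjusted p under 0.05 (0.0474% of all genes), and limma on log2(FPKM + 1) called 0 as well (0.0203%). DESeq2 called 2, Cyp26b1 and Cyp2c7, beside 0.941% of all genes. Cyp2c7 followed Alb, and its call restates the sorting. There were 15 members at an unadjusted p under 0.05 (6.93% of all genes), 9 of which followed Alb. The criterion was met by 12 members, beside 3.12% of all genes: 2 were higher in catgut group 1 (1.13% of all genes were) and 10 lower (1.99%). Of the 10 lower members, 9 followed Alb and were therefore sorted on the libraries that set their level in the treadmill group, so that their count is no separate result.

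The members that were higher were both muscle-expressed. Cyp2t1, of the Cyp2 family, was 0.441, 1.09 and 1.41 FPKM (lowest, median, highest) in treadmill and 1.46, 1.66 and 1.99 in catgut group 1. The ranges did not overlap, which was so for 0.413% of all genes tested. The log2 fold change was 0.67 ± 0.25 (SE, n = 6 per group), with an adjusted p of 0.562 by edgeR. The two-sided exact permutation p was 0.00216, the smallest that 6 against 6 can give. Exact permutation p values are unadjusted here and below. In control the gene ran from 1.13 to 1.98 FPKM, a range that overlapped both. Gsta1, an alpha-class transferase that also reduces lipid peroxides, was 5.62, 9.43 and 19.6 FPKM in treadmill and 9.94, 18.3 and 25.8 in catgut group 1. Its log2 fold change was 0.79 ± 0.31 with an adjusted p of 0.574 by edgeR and an exact permutation p of 0.0303. The table's interval of Gsta1 (chr9:27368272-27452902) encloses that of Gsta3 on the other strand, and the use of strand in counting is not given in the sources used here.

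The lower member that did not follow Alb was Cyp26b1, which breaks down retinoic acid. It was 0.671, 1.03 and 1.45 FPKM in treadmill and 0.342, 0.565 and 0.869 in catgut group 1, a log2 fold change of -0.83 ± 0.20 with an adjusted p of 0.230 by edgeR, 0.0149 by DESeq2 and an exact permutation p of 0.0108. Its adjusted p ran from 0.0149 to 1.00 over the alternatives. In control the same gene was 0.268, 0.719 and 2.48 FPKM, a range that contained both others.

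For the members that followed Alb, a fold is a lower bound where all catgut libraries were at or under 12 counts, with the limit of 12 counts in each library in place of their level. In catgut group 1 the level of Sult2a2 was at least 23.3-fold lower, that of Cyp2c7 at least 14.9-fold, Cyp2c12 at least 10.8-fold and Cyp2c6v1 at least 8.06-fold. Without treadmill replicate 3 the bounds were 2.35, 2.24, 1.00 and 1.44, and without treadmill replicates 2 and 3 the treadmill mean was below the limit for all 4, so that no fold can be given. The differences of this class in the catgut comparisons rest on these treadmill libraries. Cyp2d1, with counts in most libraries, was 0.0357, 0.182 and 1.04 FPKM in treadmill and 0.0330, 0.0589 and 0.221 in catgut group 1.

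**Figure D3:**
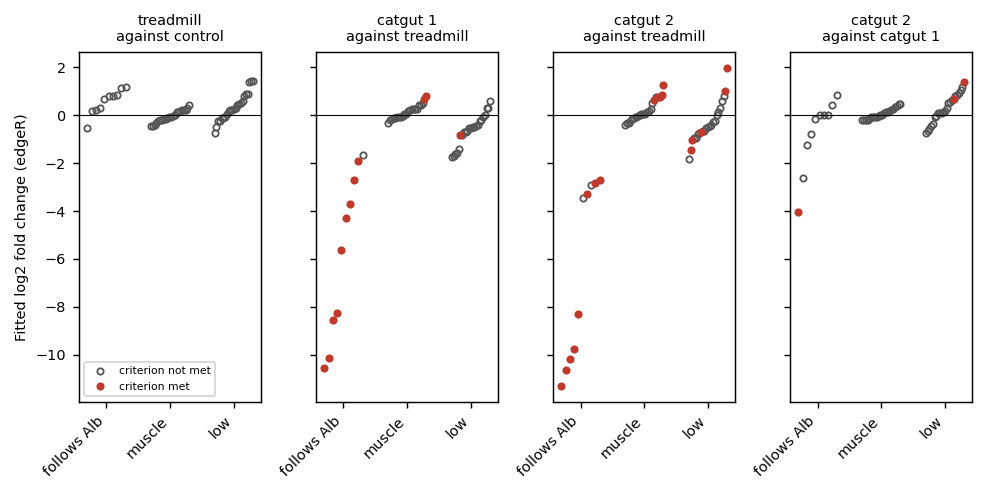
Fitted log2 fold change by edgeR (y axis) of the 55 tested members in the 4 comparisons, split by class (10 that followed Alb, 22 muscle-expressed, 23 low), with filled points for members that met the criterion. In both catgut comparisons with treadmill, fitted values below -5 belong to members that followed Alb, whose size depends on the prior count because catgut libraries were at or near 0. The muscle-expressed members that met the criterion, 2 in catgut group 1 and 5 in catgut group 2, lie above 0.

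Catgut group 2 showed the most members past the criterion. By edgeR 0 of 55 passed an adjusted p under 0.05 (0.237% of all genes) and 19 had an unadjusted p under 0.05 (10.7%). DESeq2 called 9 members, beside 2.09% of all genes, and limma on log2(FPKM + 1) called 0 (0.142%). Of those 9, Cyp2c7, Cyp2c6v1 and Cyp2d1 followed Alb, so that their calls restate the sorting. The criterion was met by 18 members, beside 3.76% of all genes. Higher in catgut group 2 were 7 (1.96% of all genes), 5 of them muscle-expressed and 2 low. Lower were 11 (1.79%), of which 8 followed Alb. These 8, also among the 19 above, were sorted on the libraries that set their level in the treadmill group. Their count is therefore no separate result. Without treadmill replicates 2 and 3, an alternative chosen after the data were seen, 12 members met the criterion. They included all 7 that were higher, while Cyp26b1 no longer met it. In that fit 4.31% of all genes met it, and 473 of these 636 genes were higher.

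Of the muscle-expressed transferases, Gsta1 and Sult1a1 met the criterion, both higher in catgut group 2. Gsta1 was 16.3, 26.5 and 32.3 FPKM (lowest, median, highest) in catgut group 2 against 5.62, 9.43 and 19.6 in treadmill, and 5 of 6 libraries lay above every treadmill library. The group means were 25.6 ± 5.64 and 10.5 ± 4.86 FPKM (SD, n = 6), and the log2 fold change was 1.26 ± 0.29 (SE) with an adjusted p of 0.104 by edgeR and an exact permutation p of 0.00433. The adjusted p was 0.0363 in a fit over all 4 groups, 0.0303 without treadmill replicate 3 and 0.00120 by DESeq2, and ran from 0.00120 to 0.242 over the alternatives. In control the lowest, median and highest levels were 11.9, 14.3 and 18.3 FPKM. Treadmill replicate 3 (19.6 FPKM) lay above these, and the other treadmill libraries were at most 11.4 FPKM, below every control library. Gsta6 was 4.29, 5.63 and 6.49 FPKM against 2.97, 3.88 and 4.56 in treadmill, with 5 of 6 libraries above, a log2 fold change of 0.52 ± 0.11 and an adjusted p of 0.0849 by edgeR (0.00169 by DESeq2). Its ratio of means was 1.46, below the criterion. Sult1a1 was 22.2, 30.5 and 36.6 FPKM against 9.20, 18.6 and 22.8, with 5 of 6 above, a log2 fold change of 0.77 ± 0.22 and an adjusted p of 0.189 by edgeR. Gstm2, Gstp1, Gstm1, Gstm3 and Gstm4, the abundant transferases of the mu and pi classes, had an unadjusted p over 0.05 in this comparison.

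Of the muscle-expressed P450 enzymes, Cyp4b1, which oxidizes fatty acids and foreign compounds, was 15.7, 22.1 and 31.3 FPKM in catgut group 2 against 7.64, 13.5 and 18.7 in treadmill. Its log2 fold change was 0.76 ± 0.28 with an adjusted p of 0.317 by edgeR. Cyp2t1 was 1.40, 1.84 and 2.78 FPKM, with 5 of 6 libraries above every treadmill library its log2 fold change being 0.87 ± 0.28, at an adjusted p of 0.264 by edgeR. Cyp4v3, a fatty acid hydroxylase, was 1.25, 1.65 and 2.16 FPKM against 0.586, 0.991 and 1.72, a log2 fold change of 0.63 ± 0.23. Cyp27a1, Cyp4f6 and Cyp20a1 did not meet the criterion, and their ranges in the 2 groups overlapped. Adipose markers, all 6 of them in the table, summed to 4.01 to 52.1 FPKM in treadmill, 5.48 to 32.0 with catgut 1 and 3.25 to 41.2 with catgut 2. Markers of smooth muscle and vessel summed to 22.7 to 43.9, 21.0 to 49.2 and 24.9 to 38.8 FPKM. The part of other cell types in the levels of these enzymes was not tested.

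Among the low members, Cyp1a1 and Cyp39a1 were higher and Cyp26b1, Cyp4f18 and Cyp4f39 lower. Cyp1a1, the best known target of the aryl hydrocarbon receptor, was 0.329, 2.51 and 7.17 FPKM in catgut group 2 against 0.292, 0.697 and 1.41 in treadmill, with 4 of 6 libraries above every treadmill library and 1 near the lowest of them. Its log2 fold change was 1.98 ± 0.61 with an adjusted p of 0.237 by edgeR (0.0204 by DESeq2) and an exact permutation p of 0.0346. Cyp39a1, an oxysterol hydroxylase, was 0.449, 0.692 and 0.979 FPKM against 0.195, 0.351 and 0.527, a log2 fold change of 1.00 ± 0.26 with an adjusted p of 0.169 by edgeR. Cyp26b1 was 0.494, 0.594 and 0.804 FPKM, a log2 fold change of -0.72 ± 0.16 with an adjusted p of 0.104 by edgeR (0.0360 with the Y-linked level as a covariate). Cyp4f18, a leukotriene-inactivating enzyme of leukocytes, was 0.401, 0.769 and 0.912 FPKM against 0.317, 1.58 and 2.28. Cyp4f39 was 0.225, 0.376 and 0.915 FPKM against 0.187, 0.743 and 4.34, the last value in treadmill replicate 2. Among members that did not follow Alb, Cyp26b1, Gsta1 and Cyp2t1 met the criterion in both catgut groups, which share the treadmill libraries they were compared with. In control, Sult1a1 ran from 15.8 to 33.7 FPKM and Cyp39a1 from 0.275 to 0.579, ranges that overlapped treadmill and catgut group 2. Cyp4b1 ran from 7.24 to 15.638 FPKM in control, which overlapped treadmill and all but reached the lowest library of catgut group 2 (15.661). Control and catgut group 2 were not compared by a test.

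**Figure D4:**
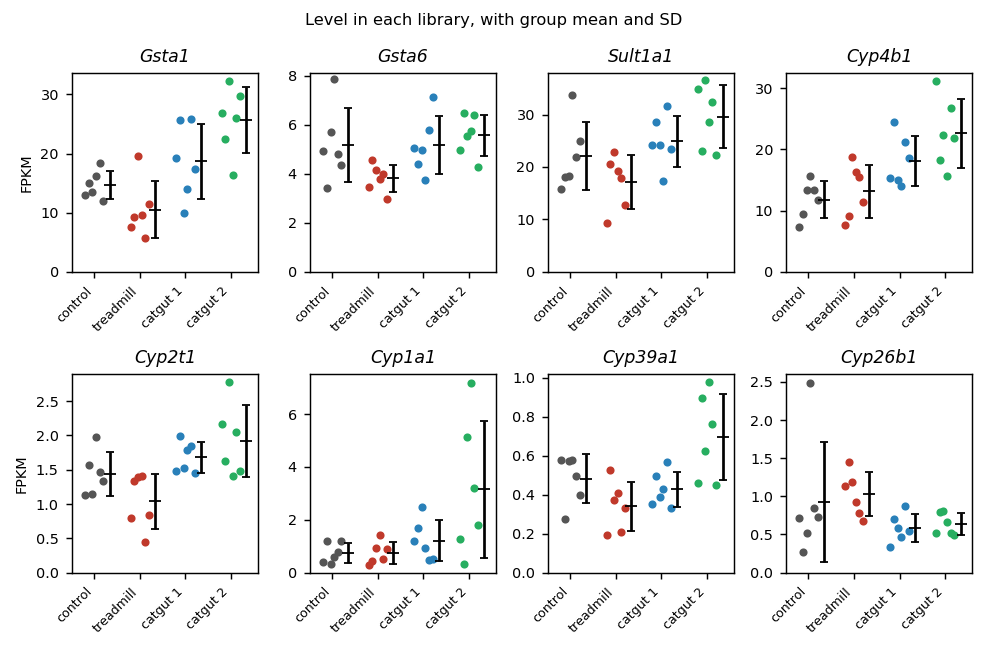
Level in FPKM (y axis, from 0) of 8 members in each library, by group on the x axis, with the group mean and SD as a black mark and bars to the right of the 6 points. Gsta1, Sult1a1, Cyp4b1 and Cyp2t1 are lowest on average in treadmill or control and highest in catgut group 2, Cyp1a1 is spread over 0.329 to 7.17 FPKM in catgut group 2, and Cyp26b1 has a single control library at 2.48 FPKM.

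The members that followed Alb were again lower against treadmill. Sult2a2 was at least 25.4-fold lower in catgut group 2, Cyp2c7 at least 16.2-fold, Cyp2c12 at least 11.8-fold, Cyp2c6v1 at least 8.80-fold and Cyp1a2 at least 3.21-fold. Without treadmill replicate 3 the first 4 bounds were 2.57, 2.44, 1.09 and 1.57, and for Cyp1a2 no fold can be given. Cyp2d1 was 0, 0.0563 and 0.0644 FPKM against 0.0357, 0.182 and 1.04 in treadmill. Cyp2d2 was at most 0.134 FPKM in catgut group 2 and 2.61 in treadmill replicate 3, and Cyp8b1 was 0, 0.0320 and 0.228 FPKM. These levels are given with no test, since the members were sorted on the treadmill libraries.

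The 2 catgut groups were compared to ask what the added acupoint changed. By edgeR and by DESeq2, 0 of 55 members passed an adjusted p under 0.05 (0.00677% and 0.0542% of all genes). By edgeR, 3 had an unadjusted p under 0.05 (3.26%). The same 3 met the criterion, beside 1.25% of all genes, with 2 higher in group 2 (0.9%) and 1 lower (0.345%). Cyp39a1 was 0.330, 0.408 and 0.569 FPKM in group 1, with 4 of 6 libraries of group 2 above these, the log2 fold change being 0.67 ± 0.22 and the adjusted p 1.00 by edgeR. Cyp1a1 was 0.458, 1.06 and 2.49 FPKM in group 1, a log2 fold change of 1.37 ± 0.59 with an adjusted p of 1.00 by edgeR and an exact permutation p of 0.132. Cyp2c6v1 was at most 0.0226 FPKM in group 1 and 0 in group 2, so both groups were at or under the count limit and no fold is given. The median log2 fold change over the muscle-expressed members was -0.0042, close to that over all genes (0.0070).

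A list of 52 partner genes of these enzymes was read beside them, 42 of which were tested. By edgeR 0 of 42 passed an adjusted p under 0.05 in any comparison. The criterion was met by 1 in treadmill against control (Mgst3, higher), 3 in catgut group 1 against treadmill and 6 in catgut group 2 against treadmill, all higher, and 0 between the catgut groups, beside 2.85%, 3.12%, 3.76% and 1.25% of all genes. Of the other oxidation and hydrolysis enzymes, 9 of 10 were tested, and 5 were higher by the criterion in catgut group 2. Ephx1, the microsomal epoxide hydrolase, was 13.5, 19.98 and 26.1 FPKM against 5.42, 8.93 and 15.2, a log2 fold change of 1.10 ± 0.26 with an adjusted p of 0.115 by edgeR. Nqo1, the quinone reductase, was 9.22, 11.7 and 14.1 FPKM against 6.05, 8.18 and 8.67, so that the ranges did not overlap, as for 1.04% of all genes. In control it was 7.33, 9.39 and 10.5 FPKM, a range that overlapped both. Fmo1 and Fmo2, flavin monooxygenases, were higher by log2 fold changes of 0.66 and 0.86. Electron donors were expressed in all libraries, with medians of 19.2 FPKM for P450 reductase (Por) and 40.8 for Cyb5a, and 0 of 3 met the criterion. Among regulators, 3 had an unadjusted p under 0.05 by edgeR in catgut group 2 (10.7% of all genes did), and none of these 3 met the criterion. The log2 fold change was -0.38 for Rxra, the partner of several nuclear receptors, -0.49 for Ahr and 0.31 for Nfe2l2, the factor of the antioxidant element, with unadjusted p of 0.00525, 0.0344 and 0.0179. Over the list, the median log2 fold change in catgut group 2 was 0.14, beside 0.07 over the muscle-expressed members and 0.0035 over all genes.

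Several low members were high in a further set of libraries, which was noticed after their values were seen and is given as a description. Cyp4a2, a fatty acid omega-hydroxylase of the kidney, was 4.82 FPKM in treadmill replicate 6, 4.21 in control replicate 4 and 3.05 in catgut 1 replicate 6, against a median of 0.060. Cyp2c23, the arachidonic acid epoxygenase of rat kidney, was 2.61 FPKM in treadmill replicate 6, 2.31 in catgut 2 replicate 2, 1.90 in control replicate 4, 1.73 in treadmill replicate 3 and 1.46 in treadmill replicate 2. Cyp4a8 was highest in catgut 2 replicate 2 at 1.24 FPKM and Sult1c2a in control replicate 4 at 1.76. Kidney markers, all 5 of them in the table, summed to 3.97, 3.68, 3.30, 2.26 and 1.97 FPKM in treadmill replicate 6, control replicate 4, catgut 2 replicate 2, treadmill replicate 2 and catgut 1 replicate 6, and to at most 0.945 in the other libraries. By group the sums ran from 0 to 3.68 FPKM in control, 0 to 3.97 in treadmill, 0 to 1.97 with catgut 1 and 0.0532 to 3.30 with catgut 2. Umod reached 1.92 FPKM and Slc34a1 2.61, while Slc12a1 was at 0 in 17 libraries and Aqp2 in 19. Across the 24 libraries the correlation of log2(FPKM + 1) with the summed markers was 0.85 for Cyp4a8, 0.84 for Sult1c2a, 0.79 for Cyp4a2, 0.77 for Cyp2c23 and 0.73 for Cyp24a1, and it rests on about 5 libraries. It was 0.70 for the muscle-expressed Gstt3, highest in catgut 2 replicate 2 at 2.42 FPKM, 0.65 for Cyp1b1 and 0.62 for Gsta5. Within the 5 libraries of highest marker sum, Cyp4a2 was high where Eif2s3y was over 5 FPKM. It was low (0.604 and 0.0833 FPKM) in catgut 2 replicate 2 and treadmill replicate 2, where Eif2s3y was at most 0.0266. All 4 groups held at least 1 such library. The part of these markers in the members' levels was not tested.

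**Figure D5:**
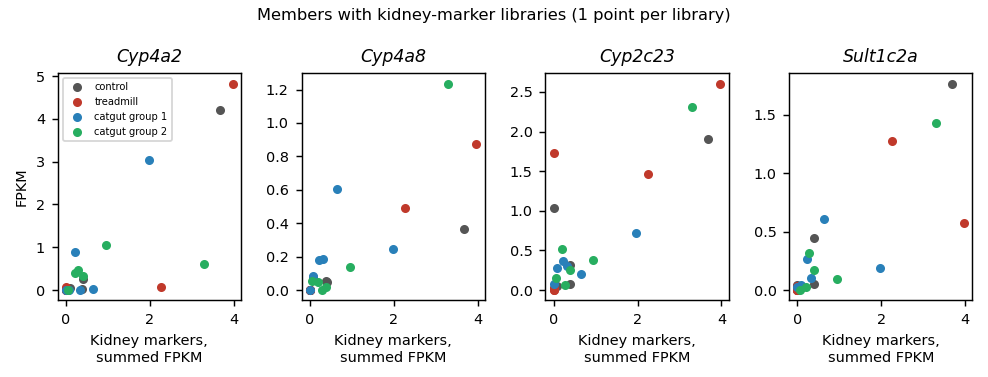
Level of Cyp4a2, Cyp4a8, Cyp2c23 and Sult1c2a in FPKM (y axis) against the summed FPKM of 5 kidney markers (x axis), with 1 point per library coloured by group. Most libraries lie near 0 on both axes, the libraries with marker sums of 1.97 to 3.97 FPKM hold the 3 highest Cyp4a2 and the 3 highest Sult1c2a values, and Cyp2c23 is also high (1.73 and 1.03 FPKM) in treadmill replicate 3 and control replicate 2, where the markers are at 0.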

How the data were processed

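Poly(A) libraries of quadriceps RNA were sequenced from 24 rats. The deposited table gives whole-number counts per gene and FPKM values that the authors normalized to transcript length and mapped fragments. The submitters' processing notes name HISAT2 2.0 and StringTie 1.3.0, and the genome build is not given in the sources used here, so table coordinates are printed as listed. The commonest counts above 0 were 4 and 8, and 12 counts (about 3 fragments) were taken as the limit of detection, which covers counting error only. The members and gene lists were chosen with earlier results of these data known.

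Groups came from the labels, each library being 1 animal. The 14772 genes that averaged 0.1 FPKM or more were tested with edgeR 4.0.16 in R 4.3.3 (quasi-likelihood, TMM, the 2 groups compared only, adjusted over all genes tested), with standard errors taken from the F statistic. DESeq2 1.42.0 and limma 3.58.1 were alternatives. Exact permutation tests on log2(FPKM + 1) were two-sided, and their p values are printed unadjusted. The steps were tested on simulated data. Members named are those that met the criterion in any comparison, the 12 most abundant muscle-expressed members, the 12 members that followed Alb with the highest maximum, and list members with their list. Others that are named were chosen after their values were seen. Some listed genes and 1 listed motif are not reported here.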

Additional observations from a re-analysis of the deposited data

Results flagged for a closer look

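Values were singled out by Dixon's test for 6 libraries. It asks whether the gap between a group's highest or lowest library and the next one is a large part of the group's range. Chance meets its limit in about 1 of 20 groups of normally distributed values. That rate cannot be applied here, because a group in which only 1 library held any counts is always singled out. The named members and the 2 class sums gave 132 groups. Some of these had no counts in any library and could not be singled out. A library stood apart in 40 groups, 13 times control replicate 2 and 11 times treadmill replicate 3. The members that followed Alb were sorted on these libraries, so their values only restate the sorting.

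The sum of the members that followed Alb was 31.5 FPKM in control replicate 2 (next 0.583), 39.1 in treadmill replicate 3 (next 4.28) and 0.969 in catgut 2 replicate 2 (next 0.302). In control replicate 2, Cyp2c7 stood at 6.32 FPKM, Cyp2c6v1 at 1.18, Sult2a2 at 6.76, Cyp2d2 at 1.95, Cyp2c12 at 6.64, Cyp2d1 at 0.525, Cyp1a2 at 0.797, Ugt2b15 at 1.11, Cyp2d5 at 0.610, Cyp4f1 at 0.902, Cyp8b1 at 1.15 and Sult1b1 at 1.33. In treadmill replicate 3, Cyp2c7 stood at 9.72 FPKM, Cyp2c6v1 at 1.79, Sult2a2 at 7.08, Cyp2d2 at 2.61, Cyp2c12 at 7.12, Cyp2d1 at 1.04, Cyp1a2 at 1.72, Ugt2b15 at 0.717, Cyp8b1 at 2.03 and Sult1b1 at 0.847.

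In the catgut groups the values of this class that stood apart were small. In catgut 1 replicate 5, Sult2a2 was 0.0148 FPKM and Cyp2d1 0.221. In catgut 1 replicate 6, Cyp2d5 was 0.0348 FPKM and Sult1b1 0.0440. In catgut group 2, Cyp2d5 was 0.0857 FPKM in replicate 5, Cyp4f1 was 0.175 in replicate 2, and Cyp2d1 was 0 in replicate 6, below all others of the group.

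Members of the other classes stood apart in 8 groups, the class sum included. Cyp4f39 was 1.49 FPKM in control replicate 6, 4.34 in treadmill replicate 2 and 1.82 in catgut 1 replicate 3. Control replicate 4 held Cyp26b1 at 2.48 FPKM (next 0.853) and Cyp4v3 at 2.48 (next 1.12), and this library also had the highest adipose markers, with Adipoq at 21.4 FPKM. Gstm3 was 5.88 FPKM in catgut 1 replicate 3, below the next at 10.8. Cyp27a1 was 27.7 FPKM in catgut 2 replicate 1 (next 19.6). The sum of the muscle-expressed members was 423 FPKM in control replicate 1 (next 338).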

How the results depend on the processing

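Shares in parentheses are those of all genes tested in the same fit. By adjusted p, 0 members were called in each comparison, which DESeq2 moved to 2 in catgut group 1 (0.941%) and 9 in catgut group 2 (2.09%) against treadmill. In the latter, 1 was called in the fit over all 4 groups (0.366%) and 1 with the Y-linked covariate (0.325%). Leaving out single libraries gave 0 to 1, with 1 without treadmill replicate 3 (0.183%). The criterion was met by 0, 12, 18 and 3 members in treadmill against control, catgut 1 and catgut 2 against treadmill and catgut 2 against catgut 1. Of these, 0, 9, 8 and 1 followed Alb, and the 9 and 8 restate the sorting. Treadmill against control gave 3 with no filter (3.93%), 1 with Alb as a covariate (2.46%) and 7 without the libraries of highest Alb (4.71%). It gave 0 to 12 when single libraries were left out (2.48% to 4.41%, with 12 without control replicate 2). Catgut group 1 against treadmill gave 20 with no filter (4.66%), 2 at a minimum mean of 1 FPKM (1.96%), 6 by DESeq2 (2.88%) and 3 by limma with either pseudocount (2.4% and 2.61%). It gave 4 with Alb as a covariate (2.06%), 5 without the libraries of highest Alb (3.04%) and 9 to 13 with single libraries left out (2.76% to 3.53%). Catgut group 2 against treadmill gave 7 at a minimum mean of 1 FPKM (2.79%) and 10 by limma with either pseudocount (3.5% and 3.66%). It gave 10 with Alb as a covariate (2.73%) and 15 to 20 with single libraries left out (3.38% to 4.43%). Between the catgut groups the count was 1 at a minimum mean of 1 FPKM (0.697%) and 1 by limma with either pseudocount (1.56% and 1.57%). It was 1 to 3 with single libraries left out (1.15% to 1.83%, with 1 without catgut 2 replicate 3, 4 or 5). With Alb as a covariate the log2 fold changes in catgut group 1 against treadmill turned to 0.33 for Cyp2c6v1, 0.83 for Sult2a2 and 0.94 for Cyp2d2, and to 1.32 for Cyp2d2 in catgut group 2. Without the libraries of highest Alb, Sult2a2 turned to 2.60 in catgut group 1, on counts at or under the limit. For these the cause was not tested. The members that followed Alb numbered 9 without the 2 libraries farthest from its median, 0 by Spearman rho and 17 to 22 with single libraries left out. Of 33 pairs of member and comparison that met the criterion, 16 met it in every fit with 1 library left out. The 33 include pairs of members that followed Alb, whose results against treadmill restate the sorting. The share of all genes that met it in every such fit was not computed.

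The replicate numbers did not pair the libraries: correlations of same-numbered deviations ran from -0.49 to 0.28. Eif2s3y was over 5 FPKM in replicates 4 to 6 of control, treadmill and catgut group 1 and in replicates 1 and 5 of catgut group 2, so the number carries that split in 3 groups. With the replicate block the criterion was met by 6 members in catgut group 1 against treadmill (2.52%) and 1 between the catgut groups (1.27%), with 0 and 13 in the other comparisons (2.38% and 3.27%). Transcripts at or near 12 counts limit what can be said of the low members.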
